A study of Mus musculus with 12 samples.

Results

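The promoter peaks of non-coding genes were the regions of open chromatin that lay at the start of genes whose RNA is not translated. A peak belonged to them if its centre lay within 500 bp of the nearest transcription start site (TSS), if the gene at that TSS was annotated with a type other than protein-coding, and if the gene's name did not begin with Mir or Snor. There were 669 such peaks among 84243 in the master peak-list, at 653 genes. They made up 5.08% of the 13171 promoter peaks (95% Wilson interval 4.72% to 5.47%). Of the others, 12402 were promoter peaks of protein-coding genes and 100 were left out because of a Mir or Snor name.

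The assay was ATAC-seq, which marks open chromatin through the DNA that a transposase can reach and tag, and it was run on 12 samples, 2 replicates of each of 6 sorted blood cell types. All cells came from wild-type C57BL/6 mice of 8 to 12 weeks that carried no engineered allele and received no treatment. Hematopoietic stem cells (HSCs; cKit+, Lin-, Sca1+, Flk2-, Slamf1+), megakaryocyte progenitors (MkPs; cKit+, Lin-, Sca1-, Slamf1-, CD41+), erythroid progenitors (EPs; Lin-, CD71+, Ter119+ or Ter119-), granulocyte/macrophage cells (GMs; Gr1+, Mac1+) and B cells (CD43-, B220+) were taken from bone marrow, and T cells (CD25-, CD3+, with or without CD4 and CD8) from thymus. The peaks form a single list pooled over the 6 cell types, which does not say in which cell type a peak was open or how many reads it held. Of 19 marker genes of the 6 cell types, 17 had a promoter peak in the list and Mpo and Cd3g had none. Such peaks are common, since 60.4% of 20999 curated protein-coding genes in RefSeq had a peak centre within 500 bp of a TSS. Every peak was 499 bp wide. Shares are given with 95% Wilson intervals and differences between shares with 95% Newcombe intervals, which cover counting error only, since peaks are not replicates and no value per replicate was analysed here.

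Non-coding genes differ widely in what their RNA does. Some long non-coding RNAs act in the nucleus, as Neat1 does by building paraspeckles or Kcnq1ot1 by silencing neighbouring genes on the paternal chromosome, and many others have no known function. Some transcripts serve as hosts whose introns or exons release small nucleolar RNAs (snoRNAs), which guide the chemical modification of ribosomal RNA, or microRNAs, which repress mRNAs through a short seed. Others are small catalytic or structural RNAs, several of them made by RNA polymerase III. Many mammalian promoters drive transcripts in both directions, so that a non-coding RNA often starts next to a protein-coding gene and runs away from it.

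The sequences below show how different the promoters of these genes were. Each runs 5′ to 3′ on the strand of the gene from 200 bp before the TSS to 40 bp after it, with CG dinucleotides in capitals, and comes from the GRCm38.p6 assembly of RefSeq, which has the mm10 coordinates of the peaks. Tug1, a conserved long RNA, held 29 CG dinucleotides on the minus strand of chr11:3648774-3649014. Dleu2, the host of miR-15a and miR-16-1, held 21 on the minus strand of chr14:61682333-61682573. F630028O10Rik, the transcript that contains miR-223, held 2 on the plus strand of chrX:96239726-96239966. Gm14005, now named Morrbid, a regulator of the survival of myeloid cells, held 5 on the minus strand of chr2:128429311-128429551. Ttc39aos1, also known as lincRNA-EPS and named for the survival of erythroid cells, held 3 on the minus strand of chr4:109406217-109406457.
Tug1: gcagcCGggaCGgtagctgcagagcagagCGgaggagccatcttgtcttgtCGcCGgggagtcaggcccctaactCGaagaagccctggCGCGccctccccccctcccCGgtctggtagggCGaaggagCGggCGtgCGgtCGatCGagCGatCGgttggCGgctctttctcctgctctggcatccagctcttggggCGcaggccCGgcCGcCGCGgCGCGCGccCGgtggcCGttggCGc
Dleu2: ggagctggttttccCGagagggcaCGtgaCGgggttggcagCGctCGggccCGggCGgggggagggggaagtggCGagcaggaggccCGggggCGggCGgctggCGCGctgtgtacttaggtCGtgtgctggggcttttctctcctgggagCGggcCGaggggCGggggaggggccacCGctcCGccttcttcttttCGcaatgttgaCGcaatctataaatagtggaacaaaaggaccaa
F630028O10Rik: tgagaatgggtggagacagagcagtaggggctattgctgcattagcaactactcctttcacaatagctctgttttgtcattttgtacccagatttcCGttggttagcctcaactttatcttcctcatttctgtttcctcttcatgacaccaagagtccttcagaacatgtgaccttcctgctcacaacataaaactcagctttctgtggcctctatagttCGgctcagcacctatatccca
Gm14005: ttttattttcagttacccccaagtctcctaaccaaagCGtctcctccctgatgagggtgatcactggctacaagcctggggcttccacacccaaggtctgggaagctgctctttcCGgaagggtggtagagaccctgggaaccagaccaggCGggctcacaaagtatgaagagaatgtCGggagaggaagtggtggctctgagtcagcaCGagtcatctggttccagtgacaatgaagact
Ttc39aos1: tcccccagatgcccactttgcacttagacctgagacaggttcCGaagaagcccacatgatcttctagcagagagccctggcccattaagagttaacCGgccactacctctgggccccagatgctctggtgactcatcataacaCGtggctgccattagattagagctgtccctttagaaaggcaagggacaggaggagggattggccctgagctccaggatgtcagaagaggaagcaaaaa

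Of the 669 peaks, 624 were at genes of type ncRNA, 44 at pseudogenes (type pseudo) and 1 at an snRNA gene, Rnu11. RefSeq release 108.20200622 matched 667 of the peaks by gene ID and gave 608 of them the biotype lncRNA and 43 transcribed pseudogene. A further 9 were at genes that RefSeq now counts as protein-coding. Most of these genes carried provisional names. A RIKEN clone name ending in Rik stood at 363 of the peaks and a predicted-gene name beginning with Gm at 166, while 38 had a name ending in os, which marks a transcript on the opposite strand of a named gene. A single peak was found at 638 genes, 2 peaks at 14 genes and 3 peaks at 1810041H14Rik alone. The peaks lay on every autosome, with 55 each on chromosomes 2 and 11, and 25 lay on chromosome X. The peaks closest to the limit inside it were those of Bcas1os2 at 497 bp, A230083G16Rik at 496 bp and Gm1720 at -496 bp from the TSS, where negative values are upstream, and those closest outside it belonged to C230035I16Rik at -501 bp and 4930447F24Rik at 507 bp.

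The distance to the TSS was the value that chose the peaks, so it is given as a description. The median distance of the centre from the TSS was 88 bp, with a middle range of 34 to 202 bp, against 66 bp in protein-coding promoter peaks. A centre within 100 bp of the TSS was found in 364 of 669 peaks, or 54.4% (50.6% to 58.1%), against 61.9% of protein-coding promoter peaks, which lie within the same limit of 500 bp. The centre lay upstream of the TSS in 404 peaks (60.4%, against 57.4% of protein-coding promoter peaks), and the interval of that difference, -0.884 to 6.71 percentage points, includes 0.

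**Figure D1:**
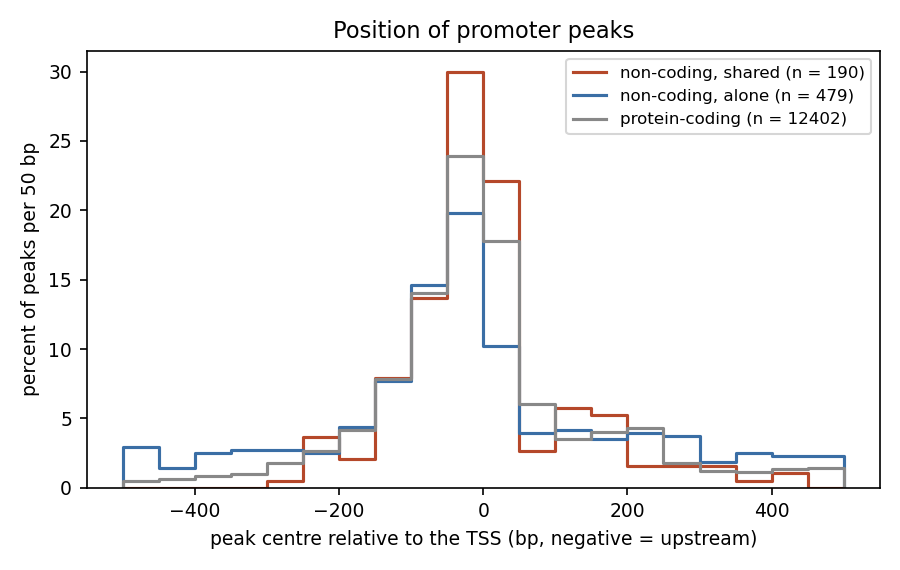
Position of the peak centre relative to the TSS, as the percent of peaks in each 50 bp bin, for non-coding promoter peaks with a protein-coding TSS within 500 bp (shared, 190 peaks), those without one (alone, 479) and protein-coding promoter peaks (12402). All curves peak at the TSS, and the shared peaks are the most concentrated there, with a median distance of 46 bp against 105 bp for those alone. Distance and assignment to the nearest TSS chose the peaks, so this contrast is a description.

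A protein-coding gene often shared the peak. The TSS of another, protein-coding gene lay within 500 bp of the centre of 190 of the 669 peaks (28.4%, 25.1% to 31.9%), against 7.52% of protein-coding promoter peaks, a difference of 20.9 points (17.6 to 24.4). Below, these 190 are called shared and the other 479 alone. In 136 of the 190 (71.6%, 64.8% to 77.5%) the paired TSSs pointed away from each other, and in these the median gap between the paired TSSs was 152.5 bp. The TSSs faced each other on opposite strands, so that the 5′ ends overlapped, in 48, and the genes ran the same way in 6. Among the 44 pseudogene peaks 6 were shared (13.6%, 6.40% to 26.7%).

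Shared peaks lay closer to the non-coding TSS, which is given as a description because distance chose the peaks. Their centre was within 100 bp of it in 131 of 190 (68.9%), against 233 of 479 alone (48.6%). The list assigns each peak to the nearest TSS of its own annotation, which passed over some RefSeq TSSs. A peak between a non-coding and a coding TSS of that annotation entered only if it was nearer to the non-coding one. The smaller distance of shared peaks was therefore partly set in advance. A further 386 peaks assigned to protein-coding genes (3.11%, 2.82% to 3.43%) had the TSS of a curated non-coding gene within 500 bp and were not counted here.

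Among the peaks alone, 354 had a TSS outside any protein-coding gene, 117 inside one on the opposite strand and 8 inside one on the same strand. Examples of the antisense kind were Airn, whose TSS lies inside Igf2r, and Kcnq1ot1, inside Kcnq1. Peg13, inside an intron of Trappc9, was on the same strand as its host. The median distance to the nearest other protein-coding TSS was 33597 bp for those outside genes and 6730 bp for those antisense inside one.

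The base composition split the peaks along the same line. A peak was called CpG-island-like if its GC content was at least 50% and its CpG dinucleotides reached at least 0.6 of the number that its C and G content predicts. This held for 358 of 669 peaks (53.5%, 49.7% to 57.3%), against 76.3% of protein-coding promoter peaks and 3.93% of the 71072 non-promoter peaks. The difference from protein-coding promoter peaks was -22.8 points (-26.6 to -18.9). It held for 177 of the 190 shared peaks (93.2%) and for 181 of the 479 alone (37.8%), a difference of 55.4 points (49.1 to 60.4). Shared peaks differed from protein-coding promoter peaks by 16.9 points (12.3 to 19.8) and those alone by -38.5 points (-42.8 to -34.0).

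The median GC content was 65.3% in shared peaks, 54.1% in those alone and 63.5% in protein-coding promoter peaks. The median ratio of observed to predicted CpG was 0.84, 0.50 and 0.78 in the same order, and 0.22 in non-promoter peaks. Within the peaks alone, the CpG-island-like share was 41.0% (32.5% to 50.1%) for antisense TSSs inside a gene and 36.4% (31.6% to 41.6%) for TSSs outside genes, and these intervals overlap. Pseudogene peaks were CpG-island-like in 29 of 44 (65.9%, 51.1% to 78.1%). In a measure added after the files were seen, repeats marked by lower-case letters in the assembly covered at least 50% of 9 peaks (1.35%, against 0.145% of protein-coding promoter peaks, a difference of 1.20 points, 0.559 to 2.39). The 9 included the peak of A330023F24Rik, the host of miR-29b-2 and miR-29c, at 57.1%.

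**Figure D2:**
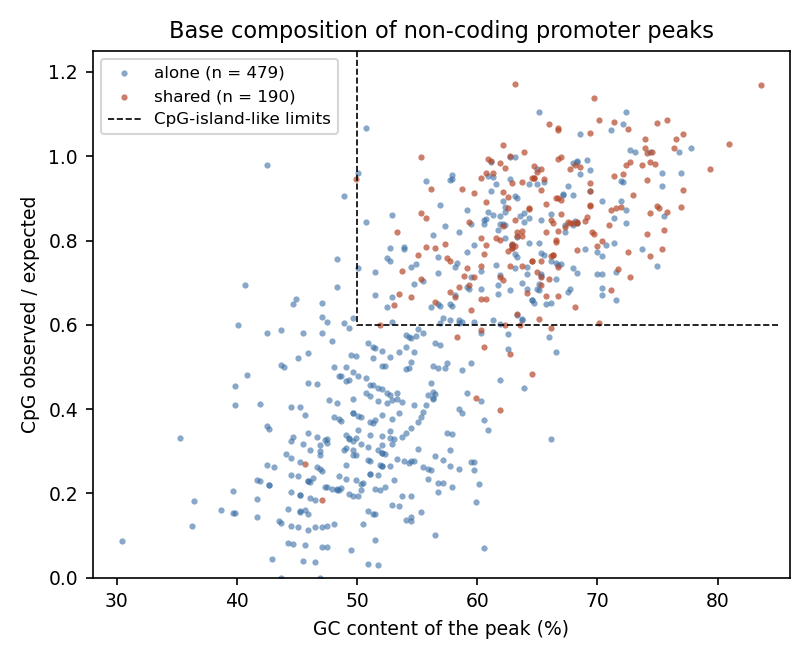
GC content (%) and ratio of observed to predicted CpG of each of the 669 non-coding promoter peaks, with shared peaks (190) and those alone (479) in different colours and the limits for CpG-island-like sequence dashed. Of the shared peaks 177 fall inside the limits, and of those alone 181, with the rest spread towards low CpG.

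Motif strings were counted next. The 16 searched, on both strands of the whole peak, were TATAAA for the TATA box, CCAAT for NF-Y, GGGCGG for the GC box, CCGGAAG for ETS factors, TGACGTCA for CREB, GCATGCGC for NRF1, AAGATGGC for YY1, AGATAA for GATA factors, AACCACA for RUNX, GAGGAAGT for PU.1, TGANTCA for AP-1, CACGTG and CAGCTG for E-box factors, ATTGCNNCA for C/EBP, ACTACAA for ZNF143 and the CTCF consensus. None of the strings contains another. A match says only that these letters occur in the peak. For 9 of the 16, the interval of the difference between non-coding and protein-coding promoter peaks excluded 0.

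The largest of the 16 differences was that of GGGCGG, the GC box bound by SP1. With 1 mismatch allowed it was -1.05 points, and the cause of that change was not tested. In the central 200 bp the difference was -16.5 points, and for peaks alone it was -31.3 points. GGGCGG was in 385 of the 669 peaks (57.5%) and in 77.0% of protein-coding promoter peaks (difference -19.4 points, -23.3 to -15.7). It was in 87.4% of shared peaks and 45.7% of those alone, and in 24.1% of all 84243 peaks. CCGGAAG was in 33.2% of shared peaks (26.9% to 40.1%), 13.2% of those alone (10.4% to 16.5%) and 21.5% of protein-coding promoter peaks. AGATAA, the site of the erythroid and megakaryocyte regulator GATA1 and of its relative GATA2, ran the other way. It was in 5 of 190 shared peaks (2.63%), in 83 of 479 alone (17.3%) and in 8.35% of protein-coding promoter peaks. The difference between those alone and protein-coding promoter peaks was 8.98 points (5.82 to 12.7). GAGGAAGT, a site of the myeloid and B cell regulator PU.1, was in 4.21% of shared peaks and 9.39% of those alone, and the CTCF consensus was in 1.05% and 5.85%. In non-promoter peaks AGATAA stood at 26.9%, GAGGAAGT at 10.2% and the CTCF consensus at 8.74%. CCAAT was in 51.6% of shared peaks and 47.8% of those alone, and the interval of that difference (-4.59 to 12.1 points) includes 0. Over all 669 peaks CCAAT exceeded protein-coding promoter peaks by 4.81 points (0.943 to 8.70), but in the central 200 bp the difference was -0.192 points.

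The comparison was repeated separately among CpG-island-like peaks and among the others. Within each class, GC content and CpG ratio were not matched between non-coding and protein-coding peaks. Among CpG-island-like peaks the non-coding and protein-coding shares differed beyond counting error only for CCAAT, at 51.7% against 42.7% (8.93 points, 3.67 to 14.2), out of the 16 strings. Among the other peaks, 311 non-coding and 2941 protein-coding, they differed for 4 strings. AGATAA was in 21.9% of the non-coding peaks and 16.4% of the protein-coding ones (5.48 points, 1.02 to 10.6). GAGGAAGT was in 11.3% and 7.96% (3.30 points, 0.0771 to 7.40) and the CTCF consensus in 7.40% and 2.82% (4.57 points, 2.07 to 8.07). GGGCGG was lower in the non-coding peaks, at 25.1% against 46.0% (-21.0 points, -25.8 to -15.6). The interval excluded 0 for 5 of 32 such differences in all, and no correction was made for their number.

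**Figure D3:**
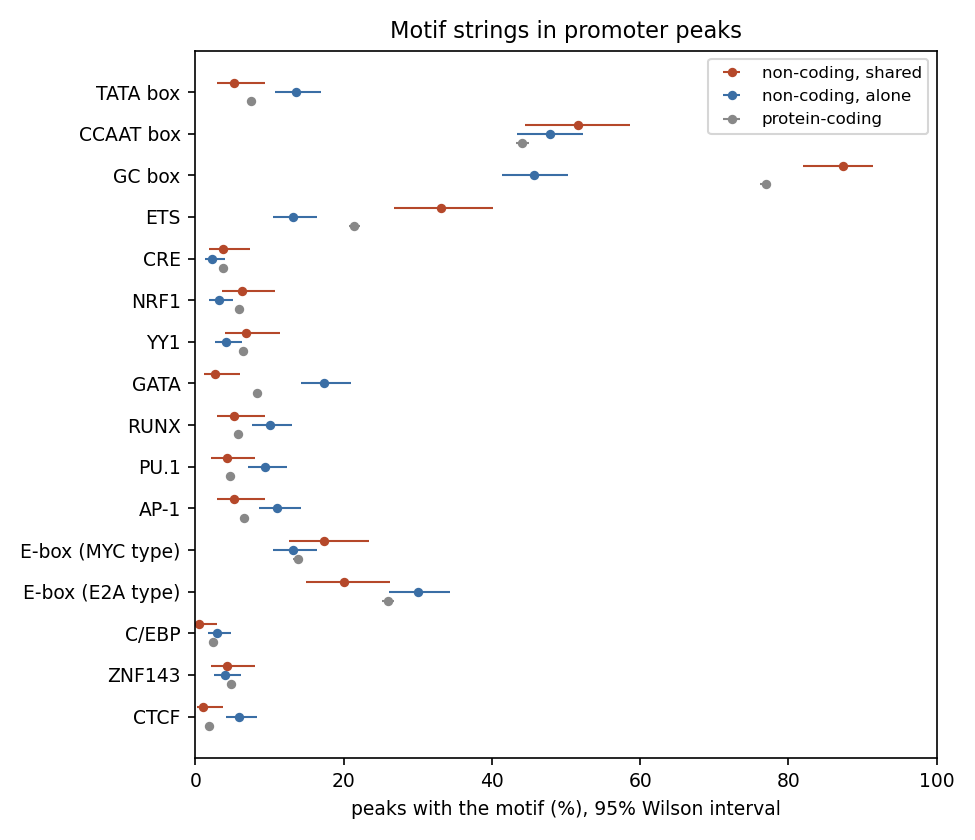
Percent of peaks that hold each of 16 motif strings, with 95% Wilson intervals, in shared non-coding, non-coding alone and protein-coding promoter peaks. The GC box and ETS strings are most frequent in shared peaks (87.4% and 33.2%), and the GATA string is most frequent in those alone (17.3%).

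Of 7 lists of non-coding genes, 42 genes had a peak here. Most snoRNA hosts release snoRNAs from their introns. Of 21 listed, 17 had a peak: Gas5, Zfas1, Dancr, Epb41l4aos and 13 genes named Snhg, which were Snhg3 to Snhg9, Snhg12, Snhg15, Snhg17, Snhg18, Snhg20 and Snhg16, listed under its older name 1810032O08Rik. Snhg1 and Snhg10 had a peak within 500 bp that the list assigned to Slc3a2 and Glrx5. RefSeq placed 8 snoRNA genes inside Gas5, 4 inside Snhg12 and 3 each inside Zfas1 and 1810032O08Rik, but none inside Snhg20, and the transcript of Snhg8 had 1 exon. The centres lay 4 to 286 bp from the TSS, with a median of 51 bp. The ratio of observed to predicted CpG in the 17 peaks ranged from 0.59 at Snhg18 to 1.105 at Snhg5, with a median of 0.86.

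Of these hosts, 4 shared the peak with a protein-coding gene. Snhg9 started 98 bp from Rps2, which encodes a protein of the small ribosomal subunit, and Gas5 67 bp from Zbtb37 by the TSS the list assigns. Snhg18 started 151 bp from Sema5a. Zfas1 and Znfx1 overlapped at their 5′ ends, with TSSs 81 bp apart. The nearest protein-coding TSS of the other 13 lay between 5269 bp (Rab42, from Snhg12) and 212334 bp (Epb41l4a, from Epb41l4aos) from the peak centre.

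snoRNA hosts are known to start in a run of pyrimidines, the 5′ terminal oligopyrimidine tract that they share with genes for ribosomal proteins. The windows below run from 25 bp before the TSS to 30 bp after it. Capitals mark the longest run of C and T between 10 bp before and 20 bp after the TSS. Such a run need not begin at the annotated TSS, and that of Snhg9 ended just before it. Snhg6 is on the minus strand at chr1:9944088-9944143, Snhg8 on the minus strand at chr3:123508306-123508361, Snhg12 on the plus strand at chr4:132308653-132308708 and Snhg9 on the minus strand at chr17:24719935-24719990.
Snhg6: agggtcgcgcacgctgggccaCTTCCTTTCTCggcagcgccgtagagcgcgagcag
Snhg8: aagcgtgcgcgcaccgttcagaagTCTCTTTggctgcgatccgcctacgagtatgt
Snhg12: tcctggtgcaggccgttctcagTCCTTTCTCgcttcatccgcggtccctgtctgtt
Snhg9: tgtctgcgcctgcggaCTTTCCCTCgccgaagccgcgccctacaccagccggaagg

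The longest such run had a median of 8 bases in the 17 hosts, with a range of 4 to 12, against 5 bases in the other 652 peaks and 4 bases in protein-coding promoter peaks. This measure was added after the files were seen and is given as a description. Snhg6 had 11 bases, and Snhg12 and Snhg9 had 9 each, while Snhg15, Snhg20 and Zfas1 had 4, so that the hosts were not alike. RefSeq placed snoRNA genes inside 24 of the non-coding genes, so the other 652 peaks include further hosts such as 2410006H16Rik. TATAAA, in a window also chosen after the files were seen, lay between 40 and 15 bp upstream of the TSS in 8 of the 669 peaks (1.20%, 0.607% to 2.34%) and in 1.06% of protein-coding promoter peaks. The 8 included the hosts Snhg5, Snhg7 and Snhg8, and Neat1.

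Of 9 annotated small structural RNA genes, 5 had a peak. Rmrp encodes the RNA of RNase MRP, which processes ribosomal RNA, and Rpph1 that of RNase P, which trims the 5′ end of tRNAs. Terc encodes the template of telomerase, Rnu11 the U11 RNA of the minor spliceosome and Vaultrc5 a vault RNA. The centre lay 4 bp from the TSS at Vaultrc5, 5 bp at Rnu11, 43 bp at Rpph1, 44 bp at Rmrp and 196 bp at Terc. Rpph1 and Parp2 were divergent, with TSSs 145 bp apart, and Rmrp and Ccdc107 were divergent at 306 bp.

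The promoters of Rmrp, Rpph1, Terc and Rnu11 are read from elements upstream of the start. At Rmrp and Rpph1 these include an A/T-rich stretch near the place of a TATA box. Each window runs from 75 bp before the TSS to 5 bp after it, on the minus strand, with the longest run of A and T between 35 and 20 bp before the TSS in capitals. The windows are chr4:43493054-43493134 for Rmrp, chr14:50807766-50807846 for Rpph1, chr3:96414828-96414908 for Terc and chr4:132270181-132270261 for Rnu11.
Rmrp: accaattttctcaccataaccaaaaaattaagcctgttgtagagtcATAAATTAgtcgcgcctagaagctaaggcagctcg
Rpph1: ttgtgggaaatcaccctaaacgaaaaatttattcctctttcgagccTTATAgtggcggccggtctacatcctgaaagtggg
Terc: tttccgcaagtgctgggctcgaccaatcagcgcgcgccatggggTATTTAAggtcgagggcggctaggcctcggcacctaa
Rnu11: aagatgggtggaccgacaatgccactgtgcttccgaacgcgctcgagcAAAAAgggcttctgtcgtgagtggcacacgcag

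The run was 8 bases at Rmrp, 7 at Terc and 5 each at Rpph1 and Rnu11. The median over all 669 peaks was 2 bases, as in protein-coding promoter peaks. Of the other structural RNA genes, Rn7sk, Rnu12, Rny1 and Rny3 had a peak within 500 bp of a RefSeq TSS that the list assigned to another gene. The peaks 253 bp from Rny1 and 244 bp from Rny3 were assigned to Mir704, at 15219 and 22272 bp from its TSS.

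**Figure D4:**
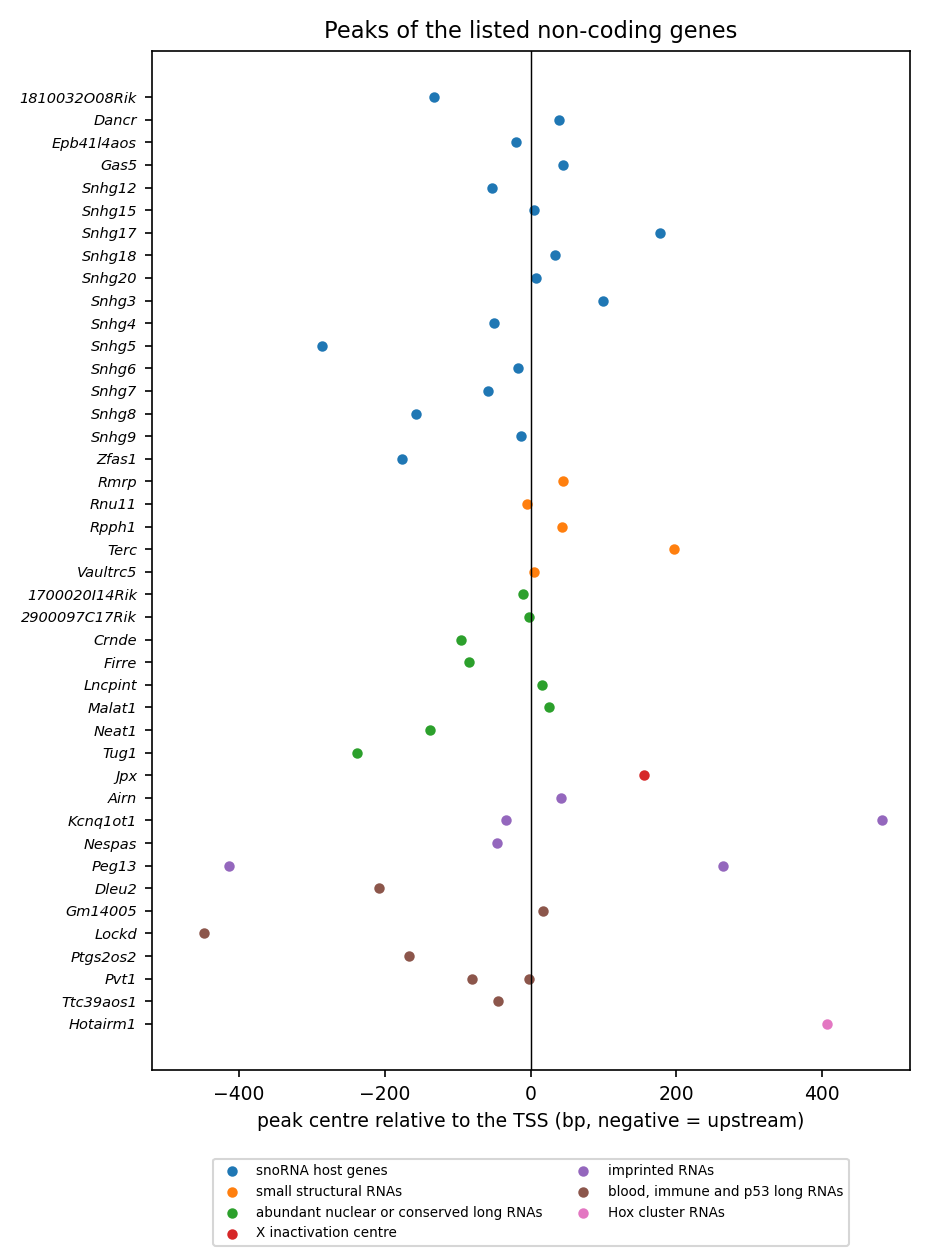
Distance of the peak centre from the TSS, in bp with negative values upstream, for the 45 peaks of the 42 listed genes, coloured by list. Most points lie within 100 bp of the TSS, and Lockd (-448 bp), Peg13 (-414 bp), Hotairm1 (406 bp) and the downstream peak of Kcnq1ot1 (482 bp) lie far from it.

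Of 10 abundant nuclear or conserved long RNAs, 8 had a peak. Malat1 makes one of the most abundant nuclear RNAs, and its peak centre lay 25 bp from the TSS. It had a GC content of 40.7% but a CpG ratio of 0.69, and so missed the limit for island-like sequence on GC alone. Neat1, its neighbour and the scaffold of paraspeckles, had its peak at -138 bp. Norad, which binds Pumilio proteins and is listed as 2900097C17Rik, had its peak at -3 bp, and Oip5os1 (Cyrano), listed as 1700020I14Rik, at -11 bp. Lncpint lay at 16 bp, Firre, which helps to organise nuclear domains, at -84 bp and Crnde at -96 bp. Tug1 lay at -238 bp and its TSS was 623 bp from the divergent Morc2a. Miat and Nron had no peak within 500 bp, and the nearest centres were 3071 and 2057 bp from a TSS.

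At the X inactivation centre, Jpx, an activator of Xist, had a peak 156 bp downstream of its TSS, while the nearest peak to the TSS of Xist, whose RNA coats the inactive X, was 5526 bp away. The distances were 3647 bp for Tsix, the antisense repressor of Xist, and 1335 bp for Ftx. The samples' sex is not given in the labels.

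Of 8 imprinted RNAs, 4 had a peak. Kcnq1ot1, Airn and Nespas are transcribed from the paternal chromosome and run antisense to Kcnq1, Igf2r and Gnas. Kcnq1ot1 had adjacent peaks centred at -34 and 482 bp, and Peg13 at -414 and 264 bp. The centre lay at 42 bp at Airn and at -46 bp at Nespas. These peaks had intermediate composition: the CpG ratio was 0.50 at Airn, 0.61 at Nespas, 0.54 and 0.67 at Kcnq1ot1 and 0.42 and 0.65 at Peg13. The maternally expressed RNAs H19, Meg3, Rian and Mirg had no peak within 500 bp. The nearest centre was 2422 bp away for H19 and 2051 bp for Meg3. The pooled list does not distinguish the parental chromosomes.

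Of 11 long RNAs linked to blood, immunity or p53, 6 had a peak. Pvt1, which lies downstream of the Myc oncogene, had a peak at -3 bp of one TSS with a CpG ratio of 0.66 and another at -80 bp of a second TSS with a ratio of 0.12, so that its starts differed in composition. Dleu2, in the region deleted in chronic lymphocytic leukaemia, had its peak at -208 bp with a ratio of 0.85. Lockd, next to the cell-cycle inhibitor gene Cdkn1b, had its peak at -448 bp with a ratio of 0.95, and Ptgs2os2 at -167 bp with 0.53. Gm14005 (Morrbid) had its peak at 17 bp with a ratio of 0.29, and Ttc39aos1 at -45 bp with 0.091. Bloodlinc, an erythroid enhancer RNA, Trp53cor1 (lincRNA-p21), Flicr and Dnm3os had their nearest centre 1009, 2972, 815 and 10197 bp from a TSS. Gm16685 had one 357 bp away that the list assigned to Il7.

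Of 8 listed RNAs of the Hox clusters, 1 had a peak, and 1 had any master peak within 500 bp of a RefSeq TSS. The share over all curated non-coding genes was 32.1%, and 8 genes are too few for a comparison with it. Hotairm1, an RNA known from myeloid cells, had it 406 bp downstream of the TSS. For the other 7 the nearest centre was 1252 to 18604 bp from a TSS, the farthest being that of Hotair.

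Host transcripts of microRNAs were also among the members. RefSeq placed 18 microRNA genes inside 12 of the non-coding genes on the same strand. Dleu2 contained miR-15a and miR-16-1, and C430049B03Rik on chromosome X contained miR-322, miR-503 and miR-351. These hosts were chosen after the annotation was searched. Mature RNAs of 5 of the hosts are shown for their seeds, the bases 2 to 8 that pair with the target, in capitals. Some seeds are shared between hosts, those of miR-29b and miR-29c within 1 host, and those of miR-503 and miR-223 with none of the others shown.
miR-15a-5p: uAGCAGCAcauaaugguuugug
miR-16-5p: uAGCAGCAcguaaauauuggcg
miR-322-5p: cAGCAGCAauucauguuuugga
miR-503-5p: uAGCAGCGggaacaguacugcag
miR-125b-5p: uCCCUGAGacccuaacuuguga
miR-351-5p: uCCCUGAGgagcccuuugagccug
miR-29b-3p: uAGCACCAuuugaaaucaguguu
miR-29c-3p: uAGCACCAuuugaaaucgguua
miR-223-3p: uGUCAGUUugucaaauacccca

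miR-15a, miR-16 and miR-322 had 1 seed in common, and miR-503 had its own. miR-351 of C430049B03Rik shared its seed with miR-125b of 3110039I08Rik, a host that also contained miR-100 and let-7a-2. The promoters of these hosts were not alike. The peak of C430049B03Rik was centred at -11 bp, with a GC content of 71.3% and a CpG ratio of 0.79, and that of E130102H24Rik, the host of miR-101a, at -35 bp with a ratio of 1.02. F630028O10Rik, the host of miR-223, a microRNA of granulocytes, had its peak at -67 bp with a GC content of 44.3% and a ratio of 0.083. 3110039I08Rik had its peak at -99 bp with a ratio of 0.32 and A330023F24Rik, the host of the miR-29 pair, at -469 bp with a ratio of 0.13. C130071C03Rik, the host of miR-9-2, stood at -230 bp with a ratio of 0.58.

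Of the genes with the most peaks, Pvt1, Kcnq1ot1 and Peg13 are described above. The gene with 3 was 1810041H14Rik, with centres at -1 bp of one TSS and at 392 and -258 bp of a second. It starts next to Ubac2, whose TSS was 101 bp from the centre of the first peak. Gt(ROSA)26Sor, the locus used to insert transgenes in mice, had peaks at -129 and 452 bp, and its TSS was 395 bp from the divergent Setd5.

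None of 88 genes for transcription factors of blood was the nearest protein-coding gene within 5 kb of a non-coding promoter peak, against 262 of all 20999 protein-coding genes (1.248%). The Wilson interval of 0 of 88 reaches 4.18%, so a difference was not detectable. Of the 88, 78 had a promoter peak of their own. Of all 20999 protein-coding genes, 60.4% had a peak centre within 500 bp of a TSS, whichever gene the peak was assigned to. Within 50 kb there were 4 of the 88 (4.55%, 1.78% to 11.1%), against 495 of all genes (2.36%), a share inside that interval. The 4 were named after their values were seen. 9230102O04Rik lay 10818 bp from the TSS of Gata3, a regulator of T cells, and on the same strand. 4930428O21Rik lay 20824 bp from Gfi1, Gm33619 lay 25939 bp from Myb and 4930597A21Rik lay 31849 bp from Ebf1, a regulator of B cells. The CpG ratio of these peaks was 0.46, 0.20, 0.26 and 0.12 in that order. The 2 peaks of Pvt1 lay 52642 and 53836 bp from Myc.

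Non-coding promoter peaks had a median of 1 other master peak within 10 kb. None was found within 10 kb of 169 of the 669 (25.3%, 22.1% to 28.7%), against 28.9% of protein-coding promoter peaks (difference -3.60 points, -6.84 to -0.0792). Taken separately, peaks alone differed by -4.01 points (-7.76 to 0.121) and shared peaks by -2.54 points (-8.35 to 4.19). Both of these intervals include 0.

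Seen from the annotation, most non-coding genes had no peak at their TSS. Of 3770 curated non-coding genes in RefSeq, 1212 (32.1%, 30.7% to 33.7%) had a peak centre within 500 bp of a TSS, against 60.4% of 20999 protein-coding genes, a difference of -28.3 points (-29.9 to -26.6). Of the 1212, 636 were the gene that the list assigned to one of the 669 peaks, and 576 were not. The share was 33.9% (32.3% to 35.5%) of lncRNA genes and 16.6% (13.4% to 20.5%) of transcribed pseudogenes. Of 848 non-coding genes with the TSS of a protein-coding gene within 1000 bp of their own, 70.9% had a peak, and of the other 2922, 20.9%, a difference of 49.96 points (46.5 to 53.3). Among protein-coding genes with no other protein-coding TSS within that distance the share was 56.8%, and the difference from the 2922 was -35.9 points (-37.5 to -34.3). A peak near a pair of TSSs counts for both genes in these shares.

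**Figure D5:**
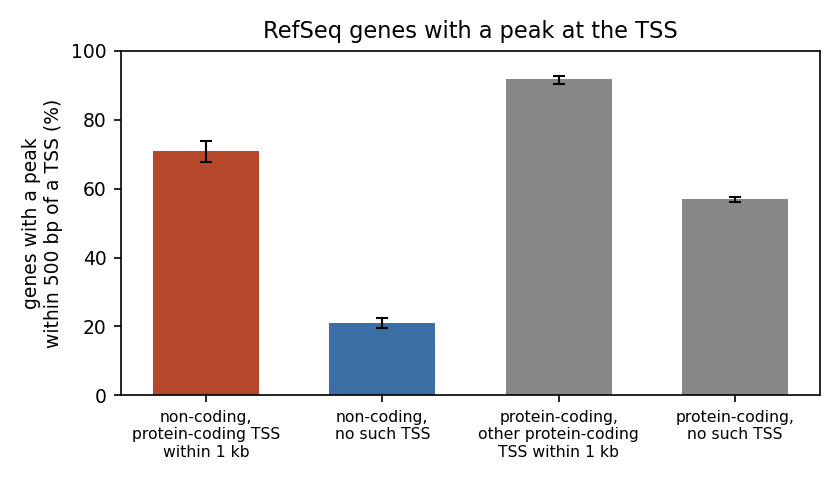
Percent of curated RefSeq genes with a peak centre within 500 bp of a TSS, with 95% Wilson intervals, for non-coding and protein-coding genes with and without the TSS of another protein-coding gene within 1 kb. Non-coding genes with such a neighbour reach 70.9% and those without one 20.9%, against 56.8% of protein-coding genes without one.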

How the data were processed

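Reads were processed by the authors with the ENCODE ATAC-seq pipeline against mm10, without multimapping reads. They joined the Irreproducible Discovery Rate peak lists, kept non-overlapping peaks with chromVAR and annotated them with HOMER 4.10.2 (version from the submitters' processing notes). The deposited coordinates and TSS distances, in bp, carry no normalization. The deposited score was 0 for every peak and was not used. Depth per sample is unknown, and cell types were not compared.

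Sequence, TSSs and biotypes came from RefSeq (GRCm38.p6, release 108.20200622), with curated transcripts unless stated. The transcript named for a peak was placed within 2 bp of its stated TSS at 644 of 669 peaks, and the distance column gave the TSS at the rest. A peak's own gene was never counted as its neighbour. Listed genes were matched by gene ID, so older names counted. Scripts (Python 3.11.15, numpy 2.4.6, pandas 2.3.3) were tested on simulated sequence and counts. Shares were compared by intervals, with no p-value.

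The genes named are every listed gene with a peak and the 5 with the most peaks, where the tie at 2 peaks was settled by naming the listed genes and Gt(ROSA)26Sor after their values were seen. Listed genes without a peak, microRNA hosts and genes within 50 kb of a blood factor were named outside that rule. Members and gene lists were chosen with earlier results of these data known. The alternatives were other distance limits, gene sets, CpG limits and motif matching, and leaving out genes that RefSeq now calls protein-coding was added after the data were seen.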

Additional observations from a re-analysis of the deposited data

How the results depend on the processing

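No paired analysis was possible because the list pools the samples, and no replicate could be left out for the same reason. Counts and shares depended mainly on distance limits. With a limit of 100 bp there were 364 non-coding promoter peaks, 4.50% of promoter peaks. The share with a protein-coding TSS nearby was 21.5% at 250 bp and 33.5% at 1000 bp. The share of non-coding genes with a peak was 15.5% at 100 bp, 37.6% at 1000 bp, 20.4% with predicted transcripts included and 20.9% for genes with no protein-coding TSS within 1000 bp. For peaks with no protein-coding TSS within 500 bp, 48.6% were centred within 100 bp of the TSS and 37.8% were CpG-island-like, and the stricter CpG limits gave 46.6% over all peaks. The median number of neighbouring peaks was 7 within 50 kb, and 4 blood factor genes were nearest within 50 kb. For the same peaks the CpG-island-like difference from protein-coding promoter peaks was -38.5 points, against -22.8 over all, and the difference in the share centred within 100 bp was -13.3, against -7.52. The other alternatives stayed within the counting interval of the reported share, within 1.5 times of the reported count or, for a difference, on the same side of 0.

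The difference in motif share from protein-coding promoter peaks changed sign in 9 of 48 recomputations. With 1 mismatch it was -0.097 points for CCAAT, 2.32 for TGACGTCA, 2.45 for AAGATGGC, -0.474 for CACGTG, 5.95 for ATTGCNNCA and 8.18 for ACTACAA. In the central 200 bp it was -0.192 for CCAAT, and for peaks with no protein-coding TSS within 500 bp it was -0.652 for CACGTG and 0.601 for ATTGCNNCA. Of the 9 strings with a difference, CCAAT was the one whose sign changed, but with 1 mismatch GGGCGG went from -19.4 to -1.05 points, and in the central 200 bp TATAAA went from 3.66 to 0.587, TGANTCA from 2.85 to 1.101 and GCATGCGC from -1.86 to -0.873, the latter strings with intervals that include 0. The number of strings with an interval excluding 0 was 9 as reported, 7 in the central 200 bp, 11 with 1 mismatch and 11 for peaks with no protein-coding TSS within 500 bp. The cause was not tested.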
